A study of Danio rerio with 43 samples.

Results

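The 10 genes described here belong to the zebrafish somite clock and to somite boundary formation, and were followed through early development in wild-type and rif1 mutant embryos. They are her1, her7, her12, hes6, dlc, dld, tbx6, mespaa, mespba and ripply1, taken by name from a count table of 31877 gene entries. Their symbols placed 8 genes on 1 entry each. The human symbol HES6 stood on 2 entries and was used for hes6, although which of them is zebrafish hes6 is not settled by the name tables. The entry ENSDARG00000019335 carried nearly all HES6 counts, since ENSDARG00000007097 reached at most 7 counts in any library and had counts at 24 hpf alone. No entry could be tied to dld, because the symbol DLD in the table is dihydrolipoamide dehydrogenase. The 2 entries with the human symbol DLL1, one of which may be dld, are given beside the rest and are not counted. The counts below therefore cover 10 entries of 9 genes.

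The libraries are QuantSeq libraries, which read the 3′ ends of polyadenylated RNA, from pools of whole embryos. The wild-type (WT) embryos were Tab5, and the mutants were Tab5 embryos of genotype rif1 omf201/omf201, and no other allele or agent is named. Rif1 is a regulator of the timing of DNA replication. The 22 wild-type and 21 mutant libraries covered 6 stages. There were 4 wild-type and 3 mutant pools at the 1-cell stage (0 to 0.5 hours after fertilisation, hpf), 3 and 3 at the 256-cell stage (2 to 2.5 hpf), 4 and 3 at dome (4 to 4.5 hpf), 3 and 4 at shield (6 hpf), 4 and 4 at bud (10 hpf), and 4 and 4 at 24 hpf. The genotype of the mothers is not given in the labels.

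Somites are blocks of mesoderm that are cut off one after another from the presomitic mesoderm of the tail end, and later give muscle and skeleton. The rhythm comes from Hairy/E(spl) repressors such as Her1 and Her7, which shut off their own genes in cycles, with Hes6 as a partner protein. Delta ligands such as DeltaC signal through Notch receptors and keep neighbouring cells in step. As cells leave the presomitic mesoderm, Tbx6 switches on the Mesp genes and ripply1, and Ripply1 in turn ends Tbx6 activity and fixes the boundary. Presomitic mesoderm forms during gastrulation, and the first somites appear shortly after the bud stage.

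Library totals ranged from 5211421 to 14143931 counts, with a median of 7606729. Levels are in CPM, counts relative to the library total after scaling by trimmed mean of M values (TMM) within a stage. The rif1 entry was lower in every mutant library than in any wild-type library of its stage, with mutant means of 1.31% to 14.5% of wild type. Its reads were counted at the 3′ end, and their position relative to the mutation is not given in the sources used here. Whole embryos were pooled, so fewer cells of a type and less RNA per cell cannot be told apart. The labels do not say whether replicate pools came from separate clutches, so p-values measure the spread between these pools alone. The use of strand is not given in the sources used here, so overlapping genes and near-identical copies, such as those of the Mesp and Her families, could share reads.

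In wild-type embryos her1, her7, HES6, dlc, mespaa and ripply1 rose between dome and shield. These were the 6 of the 10 entries that passed the filter on low counts in that step, and each was called at an adjusted p under 0.05 in edgeR's quasi-likelihood test (Benjamini-Hochberg adjustment over all genes). DESeq2, used as a second test, called 5 of the 6. In that step 52.9% of all genes tested were called in either direction and 26.1% rose. HES6 had already risen before it, by 4.50 ± 0.36 log2 units from 256-cell to dome, and her7 had counts in every wild-type library at 1-cell and 256-cell. From bud to 24 hpf all 9 entries tested were called, 8 lower and 1 higher, where 60% of all genes were called, 25.6% lower and 34.4% higher. Passing the filter required counts in the stage where a gene is high, so these counts are not evidence about the whole list.

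**Figure D1:**
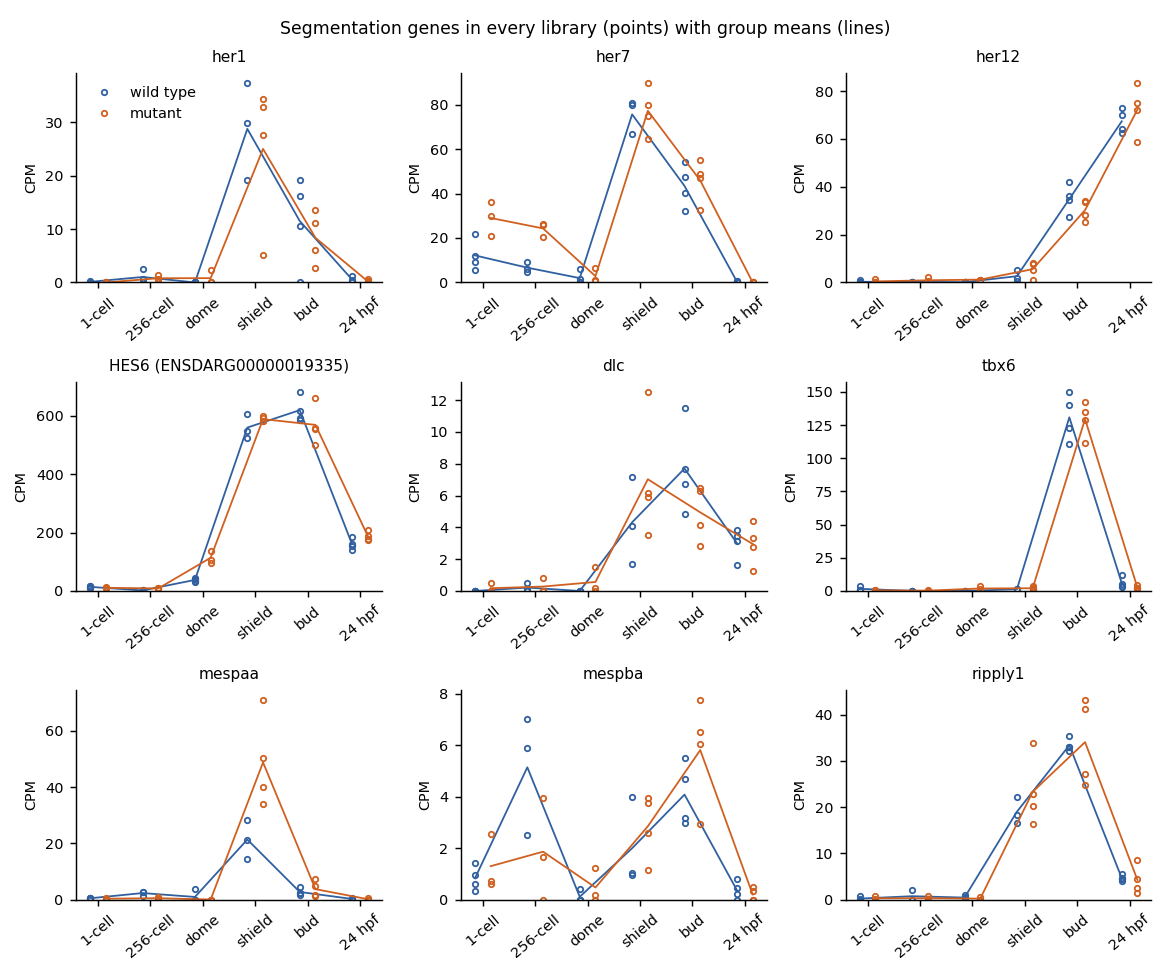
Level of 9 genes (vertical axes, CPM) in every library, by stage (horizontal axes). Open points are pools of wild-type (blue) or rif1 mutant (orange) embryos and lines join the group means. By group mean, her1, her7 and mespaa peak at shield, tbx6 and ripply1 at bud, and her12 at 24 hpf. The shield and bud libraries overlap for her1 in both genotypes and for ripply1 in mutants. The CPM are scaled within each stage.

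her1 had no count in any of the 4 wild-type dome libraries, and then 29.9, 37.3 and 19.1 CPM in the 3 wild-type shield libraries. Every shield library was above every dome library. Against a floor of 3 counts per library at dome, her1 at shield was at least 63.4-fold higher (adjusted p = 7.678e-09 in edgeR). her7, which lies next to her1 in the RefSeq annotation of assembly GRCz12tu and is a repressor of the same kind, rose from a mean of 1.95 CPM at dome to 75.6 CPM at shield, a log2 change of 5.78 ± 0.81 (SE). In the mutants her7 rose by 5.25 ± 0.50 and her1 by 5.24 ± 1.02 log2 units over the same step. The her1 value rests on mutant dome replicate 3, which held all 16 her1 counts of that group. Without it the fitted change was 10.4, a value that depends on the prior count because the remaining mutant dome libraries had no count.

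After shield the Hairy/E(spl) genes parted ways. her7 fell from shield to bud by 0.70 ± 0.18 log2 units in wild type (adjusted p = 0.002462) and by 0.64 ± 0.18 in mutants (adjusted p = 0.008792), and the groups did not overlap in either genotype. By 24 hpf her7 was nearly gone, at 1 to 7 counts per wild-type library and 0 or 1 per mutant library. her12, another Hairy/E(spl) gene of the presomitic mesoderm, did the opposite. It rose in wild type from 2.62 ± 2.29 CPM (SD, n = 3) at shield to 34.9 ± 5.99 (n = 4) at bud and 67.3 ± 4.97 (n = 4) at 24 hpf. In mutants it stood at 5.54, 30.2 and 72.3 CPM at the same stages. It was the one entry of the 9 tested that rose from bud to 24 hpf, by 1.17 ± 0.14 log2 units in wild type and 1.39 ± 0.17 in mutants.

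The HES6 entry had RNA at the 1-cell stage, a low point at 256-cell, and its highest levels at shield and bud. In wild type it stood at 14.1 CPM at the 1-cell stage, 1.89 at 256-cell, 37.8 at dome, 559 at shield, 618.6 at bud and 159.4 at 24 hpf. The fall from 1-cell to 256-cell was called in wild type, at -2.99 ± 0.43 log2 units (adjusted p = 1.428e-05). From bud to 24 hpf it fell by 1.74 ± 0.09 log2 units in wild type and by 1.47 ± 0.11 in mutants. Shield and bud were the neighbouring stages whose library values overlapped in both genotypes. The order of their means, in CPM scaled within a stage, differed between the genotypes. In the tests between stages, HES6 rose from shield to bud by 0.25 ± 0.09 log2 units in wild type (adjusted p = 0.02117 in edgeR). That call was lost in 4 of the 7 fits that each left out 1 library. The mutant change was 0.06 ± 0.11 and was not called (adjusted p = 0.6679).

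dlc, which encodes the ligand DeltaC, came on at shield at low counts. It had no count in any wild-type dome library and 32, 52 and 13 counts in the wild-type shield libraries, at least 9.52-fold higher against the floor of 3 counts per library. Its mean levels at shield, bud and 24 hpf were 4.32, 7.70 and 3.003 CPM in wild type and 7.03, 4.94 and 2.96 CPM in mutants. The fall from bud to 24 hpf was called in wild type (log2 change -1.13 ± 0.43, adjusted p = 0.0293) but not in mutants (-0.60 ± 0.52, adjusted p = 0.3314). The difference between those 2 changes was not called (adjusted p = 0.741). The wild-type call was lost in 4 of the 8 fits that each left out 1 library. Without wild-type bud replicate 1, for example, the fall was -0.87 (adjusted p = 0.12).

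tbx6, the T-box activator of the presomitic mesoderm, was low up to shield and high at bud. The wild-type libraries held 6, 10 and 14 counts at shield and 1175, 837, 1040 and 1051 at bud. The mutant libraries held 3, 14, 27 and 11 counts at shield and 911, 854, 1268 and 1203 at bud. Bud libraries of both genotypes were far above all shield libraries, with log2 changes of 6.72 ± 0.24 in wild type and 6.07 ± 0.33 in mutants. From bud to 24 hpf tbx6 fell by 4.24 ± 0.35 log2 units in wild type, and in mutants it fell by 5.62 ± 0.34. The difference between these falls was not called (-1.30 ± 0.59, adjusted p = 0.3102).

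The Mesp genes and ripply1 act at the front of the presomitic mesoderm. mespaa, a bHLH factor that is also known from the mesendoderm of the gastrula margin, peaked at shield in both genotypes, ahead of tbx6. From shield to bud it fell by 2.88 ± 0.41 log2 units in wild type and in mutants it fell by 3.63 ± 0.45, with no overlap between stages. mespba, a related factor of the anterior part of the somite and its neighbour in the same annotation, stayed below 10 CPM in every library. In wild type it was already present at 256-cell, with 20, 49 and 36 counts, and had dropped to 0, 0, 0 and 3 counts at dome (log2 change -5.12 ± 1.25, adjusted p = 0.001907). ripply1, the repressor that ends Tbx6 activity, rose in wild type from 19.01 ± 2.89 CPM (n = 3) at shield to 33.4 ± 1.39 (n = 4) at bud and fell to 4.64 ± 0.65 (n = 4) at 24 hpf. Its mutant means were 23.3, 34.1 and 4.22 CPM at those stages.

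For the remaining steps the counts of entries called are given beside the shares over all genes. From 1-cell to 256-cell 2 of 4 entries tested were called in wild type (background 49.2%). The step to dome had 2 of 4 (43.3%), and the step from shield to bud 6 of 9 (50.5%). In the mutants these counts were 0 of 3 (45.5%), 2 of 2 (50.1%) and 5 of 9 (45.6%), beside 7 of 9 in the step to shield (47.3%) and 8 of 9 in the last step (59.4%). The count of 0 came from edgeR, and at an unadjusted p under 0.05 as well as in DESeq2 it was also 0. In the step to dome the entry called lower was mespba in wild type and her7 in mutants, where mespba was not tested. By group mean, bud or 24 hpf was the highest stage for her12, tbx6 and ripply1 in both genotypes, and shield for her1, her7 and mespaa. The her1 libraries at shield and bud overlapped in both genotypes. Its fall between them was not called in wild type (-1.21 ± 0.90, adjusted p = 0.3105 in edgeR). In mutants it was called (-1.47 ± 0.52, adjusted p = 0.02713), but not in 5 of the 8 fits that each left out 1 library. For ripply1 the mutant libraries at shield and bud overlapped, and its rise was not called (adjusted p = 0.05491). By mean CPM scaled within a stage, the highest stage differed between genotypes for HES6 and dlc, whose libraries at shield and bud overlapped. It also differed for mespba, whose libraries at 256-cell and bud overlapped in wild type. For HES6 the fitted change from shield to bud, scaled over both stages, was upward in both genotypes.

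A few of these genes were called between the genotypes at the stages up to shield, and none at bud or 24 hpf. The entries called were 1 of 2 tested at 1-cell, 2 of 3 at 256-cell, 1 of 2 at dome, 1 of 9 at shield, 0 of 9 at bud and 0 of 5 at 24 hpf, each higher in mutants. Of all genes tested at these stages, 10.2%, 13.5%, 17%, 9.71%, 5.51% and 8.64% were called in either direction. Higher in mutants were 5.14%, 6.75%, 8.42%, 4.66%, 2.41% and 4.35%, and lower 5.03%, 6.71%, 8.59%, 5.05%, 3.09% and 4.29%. The median log2 difference, mutant against wild type, was 0.443, 1.87, 1.05, 0.51, -0.0138 and -0.0188 over the entries tested, and between -0.0254 and 0.0176 over all genes. At bud no entry reached an unadjusted p under 0.05, and at 24 hpf 2 did. DESeq2 called 0 entries at both stages. So few entries were tested at the first 3 stages that their share cannot be set against the background. At shield 1 of 9 was close to the 9.71% of all genes. The counts of 0 of 9 and 0 of 5 stood beside low shares of 5.51% and 8.64%. The course of these counts over the stages is therefore not a result about these genes.

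**Figure D2:**
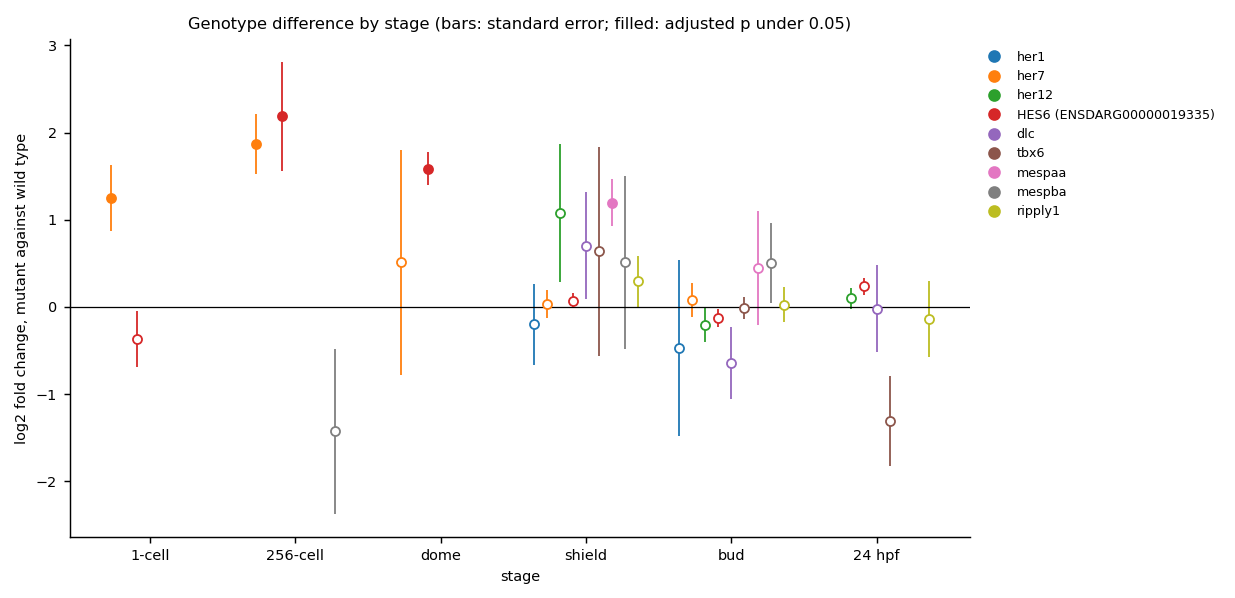
Log2 fold change of mutant against wild type (vertical axis) for each entry that passed the filter, by stage (horizontal axis). Points are edgeR estimates, bars are 1 standard error, and filled points are called at an adjusted p under 0.05. The 5 filled points, for her7, HES6 and mespaa, are all above 0 and lie at the first 4 stages.

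her7 was higher in mutants at the earliest stages. At 1-cell it stood at 11.99, 5.54, 9.33 and 21.8 CPM in wild type and 29.9, 36.4 and 20.8 CPM in mutants. The highest wild-type pool was above the lowest mutant pool, and the difference was only just called (log2 1.25 ± 0.38, adjusted p = 0.04771 in edgeR). It was not called in 5 of the 7 fits that each left out 1 library, namely wild-type replicate 1, 2 or 3 or mutant replicate 1 or 2, with adjusted p up to 0.139. At 256-cell her7 stood at 6.02, 9.03 and 4.89 CPM in wild type and 26.5, 20.7 and 25.8 CPM in mutants. Every mutant pool was above every wild-type pool there (log2 1.87 ± 0.34, adjusted p = 0.0004505), and the call was kept with any 1 library left out.

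The her7 difference was not seen after that. At dome the counts were low and uneven, with 39, 1, 10 and 0 in wild type and 4, 34 and 8 in mutants. At shield her7 stood at 80.5, 79.6 and 66.7 CPM in wild type and 79.8, 64.7, 89.7 and 74.8 CPM in mutants, which overlap. The log2 difference at shield was 0.03 ± 0.16 (adjusted p = 0.947). The change of the her7 difference from 256-cell to dome was not itself called (-1.36 ± 1.36, adjusted p = 0.6628).

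The HES6 entry was higher in mutants at 256-cell and dome. At 256-cell the libraries held 21, 12 and 8 counts in wild type and 73, 45 and 66 in mutants, without overlap (log2 2.19 ± 0.62, adjusted p = 0.01919). Leaving out wild-type replicate 2 or 3, or mutant replicate 1 or 3, ended that call, with adjusted p up to 0.0874. At dome HES6 stood at 43.8, 41.3, 31.6 and 34.6 CPM in wild type and 106.7, 138.4 and 95.9 CPM in mutants. All mutant pools were higher, by a log2 difference of 1.59 ± 0.19 (adjusted p = 5.636e-07), and this held with any 1 library left out.

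Both the appearance and the loss of the HES6 difference were called as changes between stages. At 1-cell the difference was -0.37 ± 0.32, not called, and it moved up by 2.56 ± 0.59 log2 units to 256-cell (adjusted p = 0.009671). At shield the wild-type level of HES6 was 559 ± 42.1 CPM (n = 3) and the mutant level 587.9 ± 7.45 CPM (n = 4), a log2 difference of 0.07 ± 0.09. From dome to shield the difference moved down by 1.52 ± 0.17 log2 units (adjusted p = 1.508e-07). Of the member entries tested for such changes, 1 of 4, 0 of 4, 1 of 9, 0 of 9 and 0 of 9 were called in the 5 steps, where 6.88%, 6.94%, 6.83%, 2.66% and 2.91% of all genes were. In the 3 steps without a call, edgeR gave 0, 0 and 3 entries at an unadjusted p under 0.05 and DESeq2 called 0, 0 and 0.

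mespaa was the 1 entry called at shield. It stood at 21.2, 28.4 and 14.4 CPM in wild type and 70.9, 33.9, 40.1 and 50.3 CPM in mutants. Every mutant pool was above every wild-type pool, with a log2 difference of 1.19 ± 0.27 (adjusted p = 0.005681). The call was kept with any 1 library left out, although the adjusted p reached 0.0489, and it was lost when all 12 groups were fitted together (1.14, adjusted p = 0.475). At bud mespaa was at 2.69 ± 1.22 CPM in wild type and 3.69 ± 2.92 in mutants (n = 4 each), a log2 difference of 0.45 ± 0.66 that was not called.

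The 8 entries below the filter at dome went in both directions. Among them were her12, with 0, 2, 0 and 1 counts in wild type and 7, 6 and 8 in mutants, and tbx6, with 1, 0, 0 and 0 in wild type and 2, 8 and 25 in mutants. Both were higher in every mutant library. her1 and dlc had no count in the wild-type dome libraries, and in mutants the counts were 0, 0 and 16 for her1 and 0, 1 and 10 for dlc, nearly all of them in replicate 3. mespba had 0, 0, 0 and 3 counts in wild type and 0, 1 and 8 in mutants. The other direction was seen for mespaa, with 0, 0, 0 and 26 counts in wild type and none in mutants, and for ripply1, with 0, 7, 3 and 1 against 0, 3 and 0. ENSDARG00000007097 had no count. Without the filter the edgeR adjusted p at dome was 0.191 for her1, 0.423 for her12, 0.227 for dlc, 0.165 for tbx6, 0.233 for mespaa, 0.662 for mespba and 0.839 for ripply1, so none was called. At 256-cell mespaa had 11, 19 and 17 counts in wild type against 3, 0 and 7 in mutants, and was not called without the filter (adjusted p = 0.429). mespba, which passed the filter there, also had a lower mean in mutants, at 5.14 CPM in wild type against 1.86 CPM. Its difference was not called (log2 -1.43 ± 0.95, adjusted p = 0.3811 in edgeR).

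Genes that rise during wild-type development were mostly higher in mutants at dome and shield, and genes that fall were mostly lower. Of 1739 genes that rose by at least 2 log2 units in wild type from 256-cell to shield, 79.5% were higher in mutants at dome, with a median log2 difference of 0.503. her7 and HES6 were among these genes. Of 1683 genes that rose likewise from dome to bud, 69.5% were higher in mutants at shield (median 0.239), and 7 member entries were among them, but not mespaa. Of the genes that fell by at least 2 log2 units over the same steps, 77.4% of 1928 were lower in mutants at dome (median -0.457) and 73.8% of 1608 at shield (median -0.453), and no member was among them. At bud the genes that rose from shield to 24 hpf had a median difference of -0.0545, and those that fell -0.0501. The part of this shift in the member results was not tested.

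Sums of the enveloping layer, maternal and neural plate markers did not overlap between genotypes at dome or shield. Those of the blastula, gastrula organizer, axial mesoderm, neuron, skeletal muscle and blood markers overlapped at both stages. The neural plate sum was 494 to 651 CPM in wild-type and 709 to 797 CPM in mutant dome libraries. At shield it was lower in mutants, at 1460 to 1520 CPM in wild type and 1250 to 1440 CPM in mutants. Of the 7 neural plate entries, 2 were tested at dome and 1 was called higher. At shield 4 were tested and none was called. The summed level of 4 enveloping layer genes was 285 to 384 CPM in wild-type and 735 to 807 CPM in mutant dome libraries, and 2330 to 2430 against 2980 to 3210 CPM at shield, with none of the 4 at 0. The summed level of 4 maternal genes was 583 to 914 CPM in wild-type and 317 to 356 CPM in mutant dome libraries, and 74.3 to 87.5 against 32.7 to 57.5 CPM at shield. The maternal sums were already apart at 1-cell, at 3440 to 4090 CPM in wild type and 2620 to 3020 CPM in mutants. At 256-cell they overlapped, at 3420 to 3940 CPM in wild type and 3570 to 3930 CPM in mutants. The neural plate sums were apart before dome too. They were 2.62 to 9.87 CPM in wild type against 13.7 to 19.4 CPM in mutants at 1-cell, and 3.26 to 6.9 against 21.6 to 26.6 CPM at 256-cell. At 1-cell the low gastrula organizer sums were also apart, at 7.21 to 11.9 against 3.46 to 4.73 CPM. So were those of the neuron markers, at 0.7 to 1.02 against 1.66 to 3.03 CPM. The part of these marker shifts in the member results was not tested.

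At bud the libraries of the 2 genotypes overlapped for every segmentation entry tested. tbx6 stood at 130.9 ± 17.8 CPM in wild type and 129.6 ± 13.0 in mutants (n = 4 each), a log2 difference of -0.01 ± 0.13. ripply1 stood at 33.4 and 34.1 CPM (log2 0.03 ± 0.20), and HES6 at 618.6 and 568.2 CPM (-0.12 ± 0.10). The standard errors were larger for her1 (-0.47 ± 1.01), mespaa (0.45 ± 0.66), dlc (-0.64 ± 0.42) and mespba (0.51 ± 0.46), where a difference of 1 log2 unit lies within 2 standard errors of the estimate.

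At 24 hpf 5 of the 10 entries were tested. tbx6 had 41, 28, 124 and 54 counts in wild type and 24, 3, 41 and 22 in mutants. The groups overlapped and the log2 difference of -1.31 ± 0.51 was not called (unadjusted p = 0.01559, adjusted p = 0.1208). It was called lower without mutant replicate 3, at -1.77 (adjusted p = 0.0474), and over all libraries left out in turn it ranged from -1.77 to -0.71. HES6 was at 159.4 ± 18.8 CPM in wild type and 187.4 ± 15.99 in mutants (n = 4 each), a log2 difference of 0.23 ± 0.10 (unadjusted p = 0.02008, adjusted p = 0.1413). her1, her7, mespaa and mespba were too low to be tested, and the log2 difference was 0.10 ± 0.12 for her12, -0.02 ± 0.50 for dlc and -0.14 ± 0.44 for ripply1. Skeletal muscle markers, which later somites express, were lower in mutants, with 5 entries summing to 8580 to 9120 CPM in wild type and 4500 to 6690 CPM in mutants. Other marker sums were higher in mutants without overlap. They were 3190 to 4290 against 5240 to 6320 CPM for blood and 17300 to 18000 against 19700 to 21800 CPM for the enveloping layer. For the gastrula organizer they were 33.3 to 40.8 against 44.5 to 60.1 CPM. Single entries did not all follow these sums. Of the 4 enveloping layer entries, 3 were called higher and 1 lower. Of the 3 blood entries, 2 were called higher and none lower, and none of the 4 gastrula organizer entries was called. The remaining marker sums overlapped. The part of these shifts in the member results was not tested.

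her1 varied between pools of the same genotype more than genes of its abundance, mainly through 1 library at each of 2 stages. At bud the wild-type libraries held 150, 0, 79 and 139 her1 counts and the mutant libraries 111, 73, 24 and 54. The same libraries held 253, 409, 350 and 344 her7 counts in wild type and 381, 216, 492 and 434 in mutants. Wild-type replicate 2 thus had no her1 count beside the most her7 counts of its group. Its her12, tbx6 and ripply1 counts were 207, 837 and 250.

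The excess spread was measured as the biological coefficient of variation (BCV), edgeR's estimate of the spread between libraries of a group beyond counting error. edgeR draws the estimate of each gene toward the trend at its abundance, so a ratio near 1 is partly set by the method. At bud the BCV of her1 was 1.09, against a trend of 0.337 at its abundance, a ratio of 3.23. Apart from her1, 3 of the 10605 genes tested at bud (0.0283%) had a ratio as high. At shield the ratio was 1.71 (BCV 0.424 against 0.248), and 23 other genes of 10751 (0.214%) were as high. The high ratios rested on single libraries. Without wild-type bud replicate 2 the ratio was 1.20, and 570 other genes of 11051 (5.16%) were as high. Without mutant shield replicate 2 it was 1.01, and 3556 of 10554 (33.7%) were as high. Leaving out any other library, a check chosen after seeing the data, gave 2.96 to 3.87 at bud and 1.58 to 1.79 at shield. The other member entries tested at bud had ratios of 0.917 to 1.03 and those at shield 0.891 to 1.13. The DLL1 entries, which are not counted as members, had ratios at bud of 1.4 (ENSDARG00000020219) and 1.02 (ENSDARG00000010791).

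**Figure D3:**
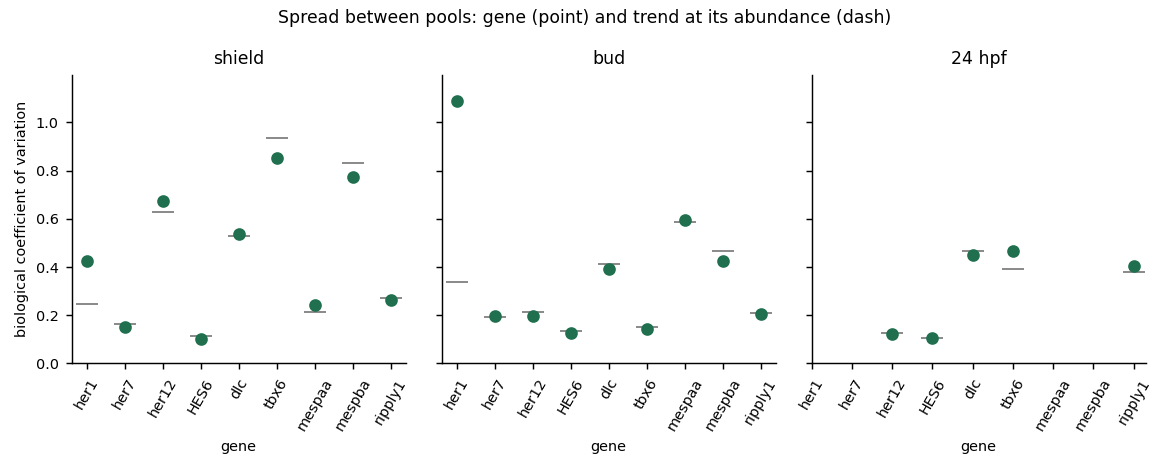
Biological coefficient of variation between pools (vertical axis, no unit) for each member entry tested at shield, bud and 24 hpf (horizontal axes). Points are edgeR's estimate for the gene, which is drawn toward the trend, and dashes are the trend over all genes at its abundance. her1 lies well above its dash at bud (1.09 against 0.337) and above it at shield, while the other points lie close to theirs.

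The share of her1 in the summed her1 and her7 counts shows the same spread without any scaling between libraries. In wild-type bud libraries the share was 37.2%, 0%, 18.4% and 28.8%, and in mutant bud libraries 22.6%, 25.3%, 4.65% and 11.1%. The exact Clopper-Pearson 95% interval of the wild-type library without her1 reached up to 0.9%, while that of the mutant library at 4.65% ran from 3.0% to 6.84%. At shield the share was 22.3% to 31.9% in 6 of the 7 libraries and 7.36% (5.09% to 10.2%) in mutant replicate 2. Low shares occurred in both genotypes. These intervals cover counting error only and leave out the spread between pools. They could be too narrow, because reads are not known to be independent molecules.

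**Figure D4:**
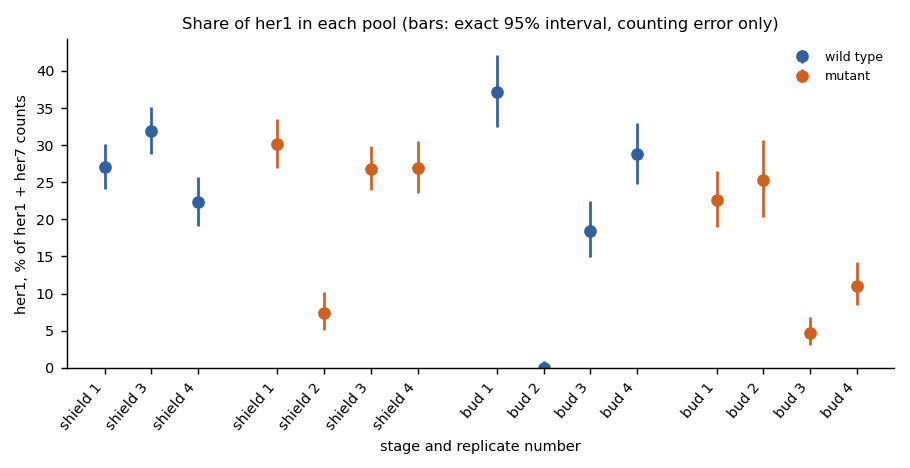
Share of her1 in the summed her1 and her7 counts (vertical axis, percent) for each library at shield and bud (horizontal axis, stage and replicate number). Bars are exact 95% intervals for counting error. The shares run from 0% to 37.2% at bud, and at shield mutant replicate 2 stands apart at 7.36%.

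Whether clock genes deviated together between pools was examined by correlating their deviations from the genotype mean. Of 15 pairs and stages considered, 6 had counts in every library, and none of these 6 correlations passed after adjustment. At shield her1 and her7 gave r = 0.85 over 7 libraries (rho = 0.57, exact permutation p = 0.0278 for r and 0.243 for rho, adjusted p = 0.115 for r). Without the 2 libraries farthest from the median of her1, mutant replicate 2 and wild-type replicate 4, r was 0.23, so the relation rested on those libraries. her1 and dlc at shield gave r = 0.72 over 7 libraries (rho = 0.64, exact permutation p = 0.0556 and 0.104, adjusted p = 0.115 for r), and r = 0.25 without the same 2 libraries.

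At bud the signs were the opposite. her7 and dlc gave r = -0.76 over 8 libraries (rho = -0.74, exact permutation p = 0.0573 and 0.0729, adjusted p = 0.115 for r), and -0.45 without wild-type replicate 1 and mutant replicate 2. her1 and her7, added although 1 library had no her1 count, gave r = -0.67 over 8 libraries (rho = -0.67, exact permutation p = 0.0712 and 0.0417, not adjusted), and -0.39 without wild-type replicate 2 and mutant replicate 3. The other planned pairs at shield were weaker, with r = 0.66 for her7 and dlc (rho = 0.46), 0.34 for her1 and HES6 (rho = 0.39), and -0.28 for her1 and tbx6 (rho = -0.32). Their exact permutation p-values for r were 0.139, 0.174 and 0.563, with adjusted p of 0.208, 0.208 and 0.563. Whether r at shield and at bud differ was not tested.

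The 2 DLL1 entries, which are orthologues of a mammalian Delta ligand, followed different courses. ENSDARG00000020219 rose from 3.37 CPM at wild-type dome to 187.8 at shield and stayed at 185.8 at bud and 159.2 at 24 hpf. ENSDARG00000010791 was at 6.53 CPM at wild-type shield and reached 121 at bud and 185.2 at 24 hpf. Neither was called between genotypes at any stage tested. The nearest were ENSDARG00000010791 at bud, at 121 ± 15.9 CPM in wild type and 91.6 ± 19.99 in mutants (n = 4 each, log2 -0.40 ± 0.15, adjusted p = 0.1339), and ENSDARG00000020219 at dome, at 3.37 ± 2.35 CPM in wild type (n = 4) and 8.56 ± 0.77 in mutants (n = 3, log2 1.34 ± 0.65, adjusted p = 0.1703). Without mutant bud replicate 2 the former was called lower (-0.55, adjusted p = 0.0389).

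Companion genes of the Notch pathway and of the Hairy/E(spl) family were compared between the genotypes in the same fits. Of 27 entries, 15, 15, 16, 17, 20 and 24 were tested from 1-cell to 24 hpf. None was called at 1-cell, 2 were higher and 2 lower at 256-cell, 3 lower at dome, 1 lower at shield, 1 lower at bud and 1 higher at 24 hpf. Over all genes tested, the shares called in either direction at these 6 stages were 10.2%, 13.5%, 17%, 9.71%, 5.51% and 8.64%. At 256-cell lfng, a glycosyltransferase that tunes Notch, was higher in mutants (3.05 against 14.5 CPM, log2 2.23 ± 0.49), while jag1a, a Notch ligand, was lower (12.7 against 2.68 CPM, log2 -2.23 ± 0.55). dlb, a further Delta ligand, was lower at bud (18.1 against 8.78 CPM, log2 -1.05 ± 0.28, adjusted p = 0.02921). her4.1, a Notch target of the nervous system, was higher at 24 hpf (47.9 against 65.0 CPM, log2 0.44 ± 0.14), with overlap between the groups.

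Genes of the presomitic mesoderm and tailbud formed the second companion list. Of 24 entries, 7, 7, 15, 16, 17 and 13 were tested, with 1 higher at 1-cell, none at 256-cell, 3 higher and 1 lower at dome, 2 higher and 1 lower at shield, and none at bud or 24 hpf. Over all genes tested, 10.2%, 13.5%, 17%, 9.71%, 5.51% and 8.64% were called in either direction at these 6 stages. More entries were tested at dome and shield than before, and dome had the highest of these shares, so the counts are not compared between stages. At dome tbxta, the T-box gene of notochord and tailbud, was higher in mutants (28.4 against 65.0 CPM, log2 1.19 ± 0.24), as was cdx4, a homeobox gene of the posterior body (1.18 against 7.54 CPM, log2 2.66 ± 0.83). At shield msgn1, a bHLH activator of presomitic mesoderm fate, was higher (415.8 against 702.5 CPM, log2 0.76 ± 0.10, adjusted p = 3.32e-05). tbx16, the spadetail T-box gene, was lower at dome (391.8 against 278.7 CPM) and at shield (532.7 against 365.1 CPM, log2 -0.55 ± 0.12). At bud msgn1 stood at 1261 CPM in wild type and 1327 CPM in mutants, and its difference was not called.

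The third group held genes of somite polarity, boundaries and muscle differentiation. Of 31 entries, 10, 9, 9, 17, 24 and 22 were tested, with 0, 2, 1, 1, 1 and 0 higher and 1 lower, at 24 hpf. These counts stand against the same shares over all genes, for example 2 of 9 against 13.5% at 256-cell and 1 of 9 against 17% at dome. At 256-cell the UNCX entry ENSDARG00000102976, a homeobox gene of the posterior part of the somite, was higher in mutants (8.85 against 45.1 CPM, log2 2.35 ± 0.27, adjusted p = 1.211e-06). aldh1a2, which makes retinoic acid, was higher at bud (9.76 against 18.9 CPM, log2 0.95 ± 0.28). myod1, the muscle determination factor, was lower at 24 hpf (51.1 against 37.8 CPM, log2 -0.43 ± 0.14, adjusted p = 0.03709), and every mutant pool was below every wild-type pool.

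Finally, the genes whose levels followed her1 or the mean of the members most closely over all 43 libraries were sought among 9647 candidates. The candidates passed the filter on low counts and reached 5 CPM in at least 1 group. They were not member entries and carried an unshared symbol that was not a provisional name. By Pearson's r of log2 CPM, the 5 most like her1 were mespab (0.86), DPCD (0.86), NIPSNAP1 (0.85), TRA2A (0.84) and HES3 (0.84), where capitals are human symbols in the name table. mespab, a close relative of mespaa, stood at 69.1 CPM in wild-type and 84.0 CPM in mutant shield libraries. Among the members mespaa was the most like her1 (0.83) and her12 the least (0.35), with her7 at 0.65. The 5 most like the mean of 9 member entries were HES3 (0.96), cdx4 (0.96), msgn1 (0.96), HKDC1 (0.96) and uox (0.95). These values describe courses that share stages, libraries and scaling, and 1 of the 5 genes most like her1 was shared with the list ranked by Spearman's rho or by group means.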

How the data were processed

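The authors deposited unnormalized whole-number read counts, 1 value per gene entry and library, for 43 QuantSeq libraries of 75-base reads. Per the submitters' processing notes the tools were STAR and HTSeq and the genome build was GRCz11. Versions, annotation, strand setting and handling of molecular identifiers are not given in the sources used here. The intervals and floors given are for counting error.

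Entries were named from a table of gene IDs, which gave 28877 of 31877 a symbol. All per-sample columns were used. Groups follow the genotype and stage in the labels. edgeR 4.0.16 (with limma 3.58.1, in R 4.3.3) fitted the libraries of each comparison alone with robust quasi-likelihood, TMM scaling and the filterByExpr filter, and a gene was called where its Benjamini-Hochberg adjusted p over all genes tested was under 0.05. The standard error of a log2 fold change is its size over the square root of F. Changes of the genotype difference between stages were tested in a fit of the 4 groups. Levels printed in CPM were scaled within a stage, and tests between stages were scaled over their own libraries. Where a group had no count, the fold is a bound against 3 counts per library. Correlations used log2 CPM and exact permutation within genotype, two-sided (SciPy 1.17.1). The fit was tested on simulated data. No library repeated another of its group, as chi-square was at least 7.6 per gene in every pair (genes of 20 or more counts).

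Alternatives were RLE size factors, library totals, DESeq2 1.42.0, no filter, a mean of at least 10 counts, a joint fit of the 12 groups, a block for the replicate number, and leaving out each library. All 10 genes were named by rule. At most 5 called genes were named per companion list and comparison, and not every called gene was named. Those left unnamed include the 3 Notch and Hairy/E(spl) entries called lower at dome and the 1 at shield. The genes, the companion lists (Notch and Hairy/E(spl), presomitic mesoderm and tailbud, somite polarity and differentiation) and the tests were chosen with earlier results of these data known. The lists and the marker lists were written from general knowledge. The leave-one-out of the her1 spread and the her1 and her7 correlation at bud were added after seeing the data.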

Additional observations from a re-analysis of the deposited data

Results flagged for a closer look

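Member and DLL1 entries gave 58 groups of 4 libraries in which at least 1 library held 10 or more counts. In 3 of these groups a library stood far from the other 3 by Dixon's test. Chance gives this in about 1 of 20 groups if values are normally distributed, which low counts need not be. In wild type at 1-cell, replicate 1 held 51 tbx6 counts (3.97 CPM), where the other libraries had 7 to 10. In wild type at dome, replicate 4 held 26 mespaa counts (3.64 CPM), where the other 3 had none. The same library held 28 counts of the DLL1 entry ENSDARG00000010791 (3.92 CPM), where the others had 0, 0 and 4.

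The genotype difference of HES6 (ENSDARG00000019335) changed between stages by a test of the change itself. It moved up by 2.56 log2 units from 1-cell to 256-cell (adjusted p = 0.009671 in edgeR) and, as a signed value, by -1.52 from dome to shield (adjusted p = 1.508e-07). With each library left out in turn these changes ranged from 2.34 to 2.90 and from -1.63 to -1.35, and both were called each time.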

How the results depend on the processing

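The counts of member entries called kept within 1.5 times their value under most alternatives. One fit of all 12 groups moved the genotype counts to 0 at 1-cell, 1 at 256-cell, 3 at dome and 0 at shield, and those from shield to bud to 3 in wild type and 3 in mutants. Without the filter on low counts, wild type from 1-cell to 256-cell had 4 calls, and the change of the genotype difference had 2 from dome to shield and 1 from bud to 24 hpf. With each library left out in turn, calls ranged from 0 to 1 at 1-cell, 1 to 2 at 256-cell and 0 to 1 at 24 hpf, and from 1 to 3 for wild type from 1-cell to 256-cell. By Spearman's rho, and by group means, 1 and 1 of the 5 genes most like her1 were shared. The cause was not tested.

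No pairing by replicate number was seen, since no comparison had all same-number correlations over 0.1 (range -0.147 to 0.0975). This check cannot tell whether libraries of equal number shared a clutch. With the replicate number as a block, the genotype counts were 1, 2, 1, 1, 0 and 0 from 1-cell to 24 hpf. Library totals in place of TMM moved the median of all genes by up to -0.473 log2 units, from dome to shield in wild type.

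Differences between genotypes changed sign in 30 cases, each 1 entry under 1 alternative, and none of those differences was called. They included her7 at dome (0.51), mespaa at bud (0.45) and ENSDARG00000010791 at shield (0.32). With the replicate block her1 at shield became 0.18 and ripply1 at bud -0.0114. With library totals her7 at shield became -0.0211 and ripply1 at bud -0.0125. With all groups in one fit her7 at shield became -0.017 and tbx6 at bud 0.00868, and without the filter tbx6 at bud became 0.0013. With each library left out in turn the range was -1.03 to 0.973 for her7 at dome, over the 5 fits in which her7 passed the filter. At shield it was -0.427 to 0.14 for her1, -0.0555 to 0.108 for her7 and -0.0123 to 0.5 for DLL1 entry ENSDARG00000010791. At bud it was -0.0321 to 0.23 for her7, -0.0833 to 0.0629 for tbx6, -0.137 to 0.811 for mespaa and -0.105 to 0.157 for ripply1. At 24 hpf it was -0.271 to 0.231 for dlc, -0.729 to 0.153 for ripply1, -0.0981 to 0.00916 for ENSDARG00000010791 and -0.147 to 0.042 for ENSDARG00000020219. Before shield most entries had too few counts to pass the filter.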
